A study of Homo sapiens with 8 samples.

Results

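The proteasome subunit mRNAs are the transcripts of 48 genes, of the 25691 gene symbols in the table, whose symbols are PSMA, PSMB, PSMC, PSMD, PSME, PSMF or PSMG followed by a number. They were chosen by symbol alone, without pseudogenes or antisense genes, and comprise 124 of the 53216 RefSeq transcripts, summed per gene. PSMC3IP and PSME3IP1, which encode proteins that interact with subunits, were not counted as members. All 8 libraries were made from HEK293T, a human embryonic kidney cell line that carries the SV40 large T antigen and was grown without treatment. Unmodified cells (WT) gave 2 libraries of RNA depleted of ribosomal RNA (WT RiboMinus) and 3 libraries of RNA pulled down through an NAD cap (WT NAD-Capture). A further 3 NAD-Capture libraries came from cells labelled DXO-KO, in which the gene of the cap-removing enzyme DXO was targeted. The labels do not say how the knockout was made or whether the cells were 1 clone, nor whether replicates came from separate cultures, so p-values may measure technical spread only. In NAD-Capture, an ADP-ribosyl cyclase swaps the nicotinamide of the cap for an alkyne, which is clicked to biotin and bound to streptavidin. The reaction without the cyclase was not analysed here. Different kits were used, TruSeq for RiboMinus RNA and SMARTer low input for captured RNA, so capture, kit and depth cannot be told apart in a comparison of the WT groups.

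The proteasome is the protease that degrades ubiquitin-tagged proteins in the cytosol and nucleus. Its 20S core is a barrel of alpha rings, which gate the entrance, around beta rings, of which PSMB6, PSMB7 and PSMB5 carry the caspase-like, trypsin-like and chymotrypsin-like sites. The 19S cap consists of a base, with a ring of ATPases that unfold the substrate, and a lid that removes ubiquitin. Interferon-inducible subunits (PSMB9, PSMB10 and PSMB8) replace the catalytic ones in the immunoproteasome, and PSMB11 replaces PSMB5 in the thymus. Subunit genes are transcribed together in many cell types, in part through NFE2L1, which binds antioxidant response elements. An NAD cap can arise when RNA polymerase starts a transcript with NAD in place of ATP, so the base at the start of the transcript is relevant to the capture.

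RefSeq promoter windows, from 250 bases before to 50 bases after the annotated start in GRCh38.p14, matched 42 of the 48 genes. Windows around the start are shown for 6 members. After NAD-Capture, PSMC4 and PSMC3 (both with A at the start) and PSMD1 (with G) were lower. PSMA4 (with C) was near level, while PSMA1, the other member with C, was lower and is not shown. PSMB10 and PSMB11 (both with A) were higher, but PSMB11 was tested only through its captured values, so its call supports nothing. Each window runs 5′ to 3′ in the direction of the gene, with the first transcribed base in capitals.
PSMC4 (chr19:39971145-39971174, plus strand): tcgtcagcggaagcggtgacAgatcatccc
PSMC3 (chr11:47426430-47426459, minus strand): gtctttggaatcggagaggcAgattcgctg
PSMD1 (chr2:231056847-231056876, plus strand): gcagcccctgggcgggcgggGtcctggcga
PSMA4 (chr15:78540385-78540414, plus strand): tcctcggccgtcccgctcccCccgccccaa
PSMB10 (chr16:67936841-67936870, minus strand): aaagcgaaagcaggaagtacAgacgtgaag
PSMB11 (chr14:23042192-23042221, plus strand): gcttgcttcttccaaacttcAttcagcccc
The annotated first base was A in 20 of the 42 members (47.6%) and G in 19 (45.2%), C in 2 and T in 1. Among 27305 genes with a window the shares were 44.3% for A and 33.2% for G. These windows describe the annotation, and the start used in HEK293T cells was not measured.

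The antioxidant response element core was searched as TGACNNNGC on both strands of the 300-base window. It was found in 13 of the 42 members (31.0%) and in 13.6% of the windows of all genes. Matches are shown for 4 members that were lower after NAD-Capture, with the matched letters in capitals. In PSMC4 the match lies on the opposite strand, so the capitals spell its reverse complement.
PSMD3 (chr17:39980760-39980788, plus strand): tcccctttgtTGACTCGGCcatcggcctg
PSMD1 (chr2:231056896-231056916, plus strand): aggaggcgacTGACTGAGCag
PSMD12 (chr17:67366724-67366752, minus strand): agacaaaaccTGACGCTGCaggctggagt
PSMC4 (chr19:39971182-39971210, plus strand): acagaggccgGCTTGGTCActatggagga
Counted from the start, the first matched base was at position -37 in PSMD3, 40 in PSMD1, -165 in PSMD12 and 28 in PSMC4. A match to these letters does not show binding.

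Values were FPKM, which counts fragments relative to transcript length and library depth, as the authors deposited them, and a difference is on the log2(FPKM + 1) scale, which understates changes of low genes. The FPKM worth of 1 fragment, read from the spacing of low values, gave depths equivalent to 10669707 and 8724790 fragments in WT RiboMinus. The same estimate was 165411 to 248634 in WT NAD-Capture, and 804886, 137667 and 80462 in DXO-KO-labelled replicates 1, 2 and 3. A median proteasome gene therefore rested on about 1032.8 to 1306 fragments in WT RiboMinus but on 9.22 to 13.7 in WT NAD-Capture and 4.79 to 43.1 in the DXO-KO-labelled libraries. The median SD of log2(FPKM + 1) between replicates, over members above 0 in all libraries of the group, was 0.046 in WT RiboMinus, 0.41 in WT NAD-Capture and 0.41 in the DXO-KO-labelled group. DXO itself was at 11.2 and 14.3 FPKM in WT RiboMinus, 33.2, 17.2 and 27.1 in captured WT RNA and 128, 61.6 and 71.7 in captured DXO-KO-labelled RNA. The mRNA was thus higher, not lower, in all 3 libraries labelled DXO-KO (exact two-sided permutation test p = 0.1, the smallest 3 against 3 allow), on 147, 12 and 8 fragments, and the label is used here as given. Of 8 HEK293T markers, 7 were above 1 FPKM in both WT RiboMinus libraries, where PAX2 was at 0.0831 and 0.204. The 8 listed markers of other cell types summed to 1.82 to 3.19 FPKM in WT RiboMinus, 11.4 to 22.5 in WT NAD-Capture and 2.92 to 14.9 in the DXO-KO-labelled group. Of these, the leukocyte marker PTPRC and the erythroid marker HBB were listed at 0 in all 8 libraries. Their counterparts were not: erythroid HBA1 was at 1.3 and 0.26 FPKM in WT RiboMinus, and leukocyte CD3E at 0.93 in DXO-KO replicate 1. The hepatocyte marker APOA1 reached 14.2 FPKM in WT NAD-Capture replicate 1 and 9.83 in DXO-KO replicate 2. The endothelial marker PECAM1 reached 5.75 in WT NAD-Capture replicate 3. The collagen gene COL1A1 was at 1.27 and 1.56 FPKM in WT RiboMinus, 8.27, 8.57 and 9.28 in captured WT RNA and 4.43, 2.57 and 0 in captured DXO-KO-labelled RNA. The part of these markers in the results was not tested.

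In WT RiboMinus RNA most constitutive subunits were abundant, and the core outranked the cap by role median. Not every core gene did: PSMA6, PSMA5 and PSMB2, at 51.7, 46.5 and 40.1 FPKM, were below the medians of the base and lid groups. PSMB4, a structural beta subunit, was highest at a mean of 366 FPKM, followed by PSMA4 at 300, the beta subunit PSMB1 at 249, and the catalytic PSMB7, PSMB6 and PSMB5 at 189, 174 and 165. Their 2 libraries did not overlap from PSMB4 to PSMB7, while those of PSMB6 (179 and 169.5) and PSMB5 (176 and 154) did. By role, the median of the mean FPKM was 174 over 7 beta ring genes, 114 over 8 alpha ring genes, 91.8 over 3 non-ATPase base genes, 82.7 over 8 lid genes and 68.9 over 6 ATPases. Core assembly chaperones PSMG1 to PSMG4 had a median of 46.0 and the activators PSME1 to PSME4 one of 32.2. Members of a stoichiometric ring were thus not level. The ATPases ran from 4.43 (PSMC1) to 125 (PSMC3), with PSMC6 next lowest at 12.1. In the alpha ring, PSMA1 to PSMA7 ran from 46.5 (PSMA5) to 300 (PSMA4). PSMA8, the alpha subunit of the testis, is counted in the alpha ring median and was listed at 0 in all 8 libraries. PSMD5, a base assembly chaperone, was at no more than 0.399. PSMC1 has processed pseudogenes, so its low value is uncertain where reads could be split between copies.

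**Figure D1:**
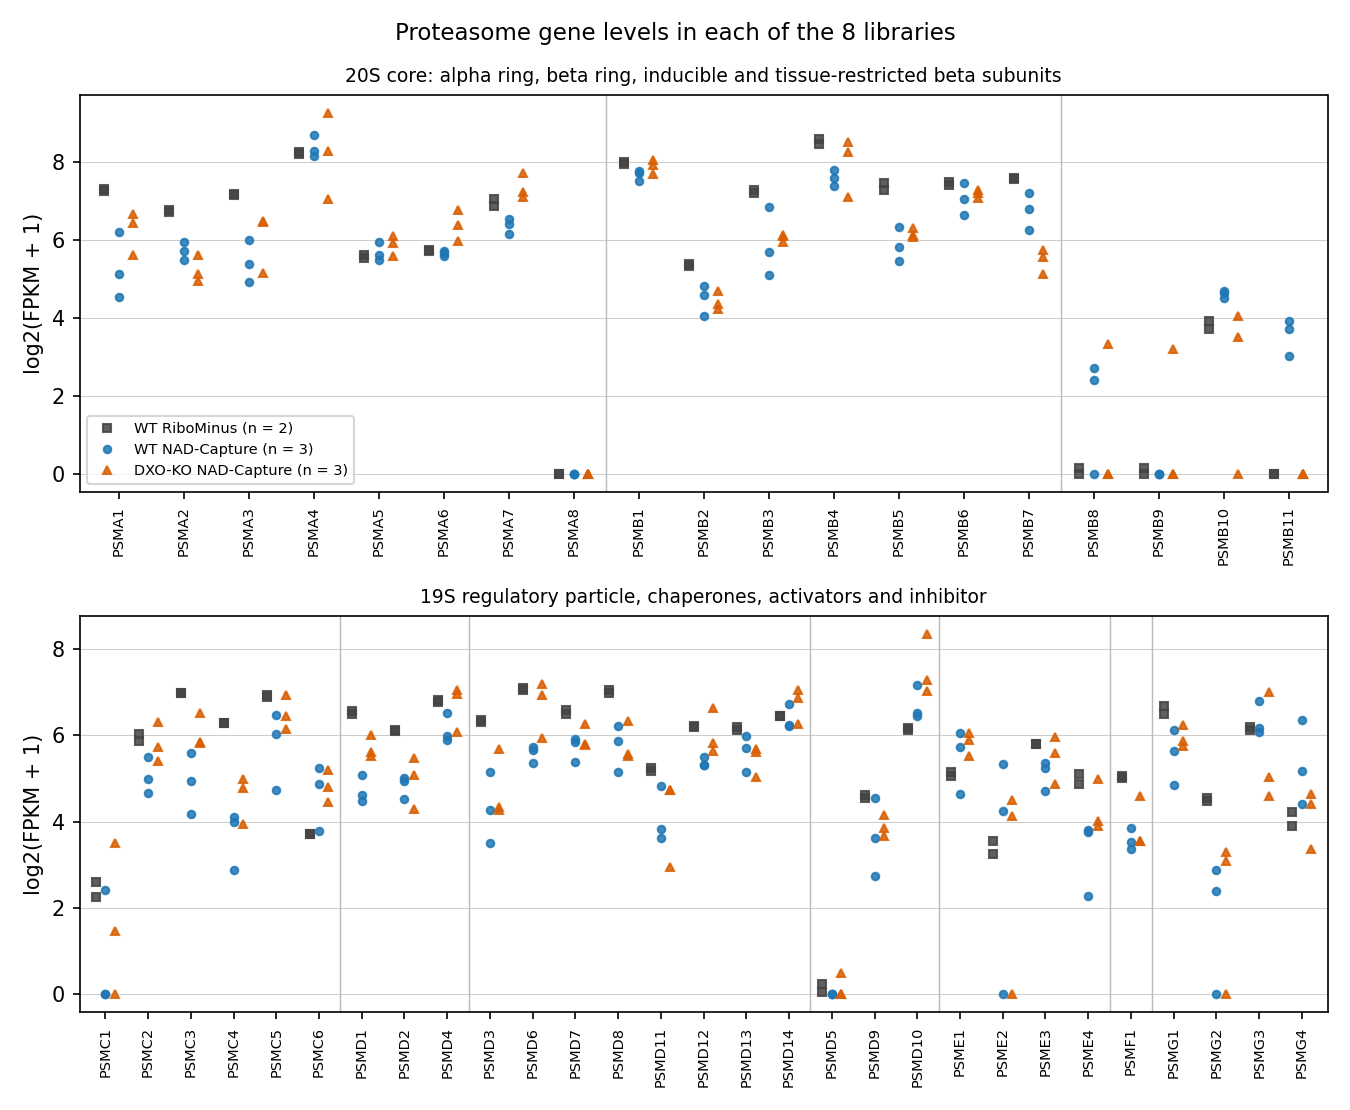
Level of each of the 48 proteasome genes in each library as log2(FPKM + 1), grouped by role with grey lines between roles; squares are the 2 WT RiboMinus libraries, circles the 3 WT NAD-Capture libraries and triangles the 3 DXO-KO-labelled libraries. Squares nearly coincide, most circles lie below them, and PSMB11 is above 0 in the 3 circles alone.

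The summed share of the 48 genes was lower after NAD-Capture. It was 0.553% and 0.538% of the estimated depth in WT RiboMinus, 0.311%, 0.297% and 0.326% in captured WT RNA, and 0.316%, 0.407% and 0.393% in captured DXO-KO-labelled RNA. No NAD-Capture library reached the WT RiboMinus level, and bulk RNA cannot tell fewer cells with a transcript from less of it per cell. The WT NAD-Capture and DXO-KO-labelled ranges overlapped, through DXO-KO replicate 1, the deepest library of its group. Counting error alone gave a 95% Poisson interval of 0.272% to 0.325% in WT NAD-Capture replicate 2 and of 0.351% to 0.439% in DXO-KO replicate 3; it leaves out copies made by PCR. These shares rest on 492 to 811 proteasome fragments in WT NAD-Capture and 316 to 2543 in the DXO-KO-labelled group, against 46927 and 58955 in WT RiboMinus.

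**Figure D2:**
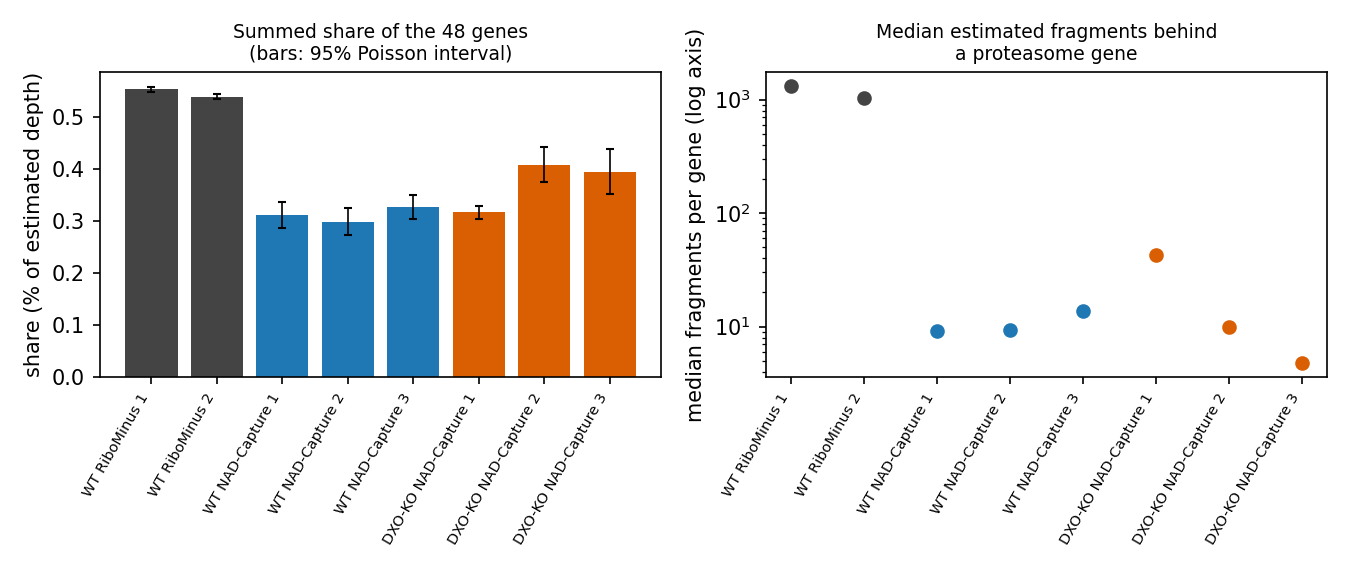
Left, estimated fragments of the 48 proteasome genes as a percentage of the estimated depth of each library, with 95% Poisson intervals; right, the median estimated number of fragments behind a proteasome gene, on a log axis. The WT RiboMinus bars at 0.553% and 0.538% stand above all 6 NAD-Capture bars, while the median gene rests on 4.79 to 43.1 fragments in NAD-Capture libraries.

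WT NAD-Capture against WT RiboMinus asks which RNAs are relatively more or less present after the pull-down. Of the 48 genes, 45 passed the filter of a mean of 1 FPKM, and 15 passed an adjusted p of 0.05 (limma, two-sided, Benjamini-Hochberg over all genes), 13 lower and 2 higher. Among the tested members PSMB11, 1 of those called higher, and PSMB8 passed the filter only through their captured values, so the call of PSMB11 supports nothing. Over all 16857 genes tested, 24.5% passed, 7.94% lower and 16.5% higher, beside 28.9% of members lower. By sign, 35 members were lower and 10 higher, beside 45% of all genes lower. The median difference was -0.88 over the members and 0.20 over all genes. Among genes with a mean of at least 10 FPKM the medians were -0.89 and -0.34. By sign 34 of 42 members were lower, beside 4219 of 6856 genes above that level. Past the adjusted p of 0.05, 15 of the 42 members were lower, beside 18% of those genes. The WT groups did not overlap for 29 members that were lower (27% of all genes) and 5 that were higher (28.6% of all genes). PSMB11, tested only through its captured values, is among these 5. Centring each library on its median gene moved the median of all genes from 0.20 to -0.25, the same shift for every gene. By sign 39 members were then lower and 6 higher, PSMA4 and PSMA5 among those that turned negative. Past the threshold 26 members were lower and 1 higher (17.6% and 13.1% of all genes). The 1 higher was PSMB11, tested only through its captured values, so its call supports nothing. Leaving out WT RiboMinus replicate 1 or replicate 2, which leaves a single library in that group, ended all 15 calls (14 members then had an unadjusted p under 0.05 each time), while the median stayed at -0.83 and -0.88.

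**Figure D3:**
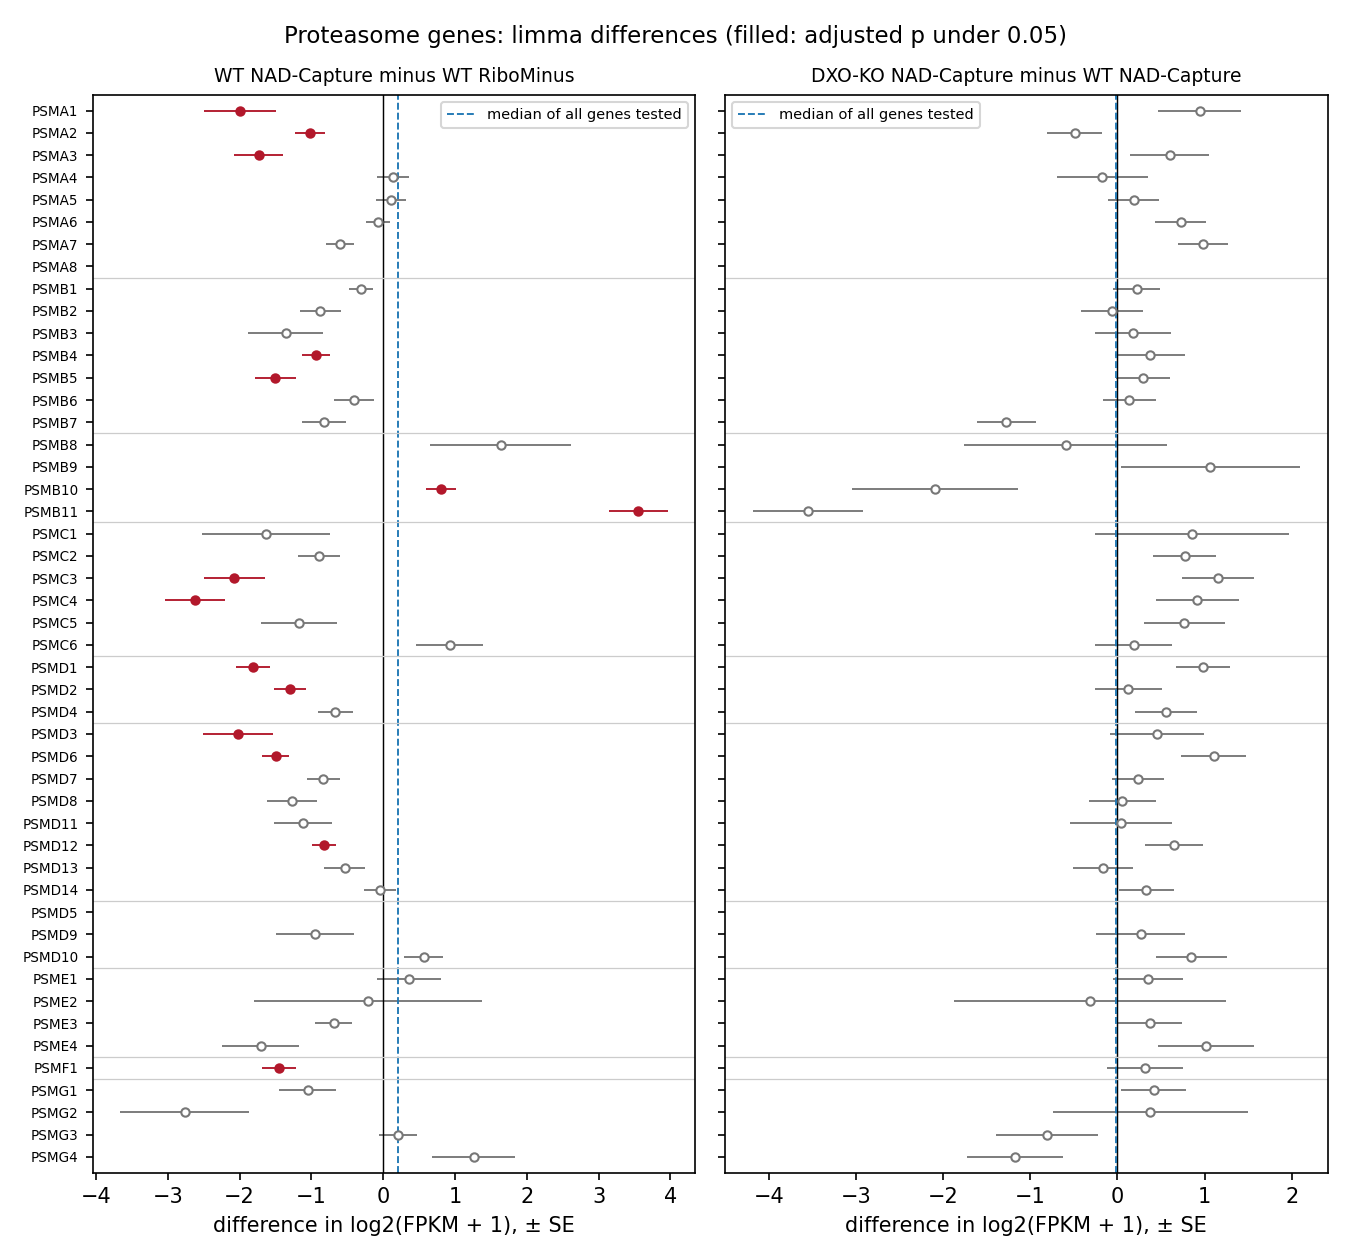
Difference in log2(FPKM + 1) with its SE from limma for each proteasome gene. The left panel shows WT NAD-Capture minus WT RiboMinus (3 and 2 libraries). The right panel shows DXO-KO-labelled NAD-Capture minus WT NAD-Capture (3 and 3 libraries). Filled points passed an adjusted p of 0.05 and the dashed line is the median of all genes tested. On the left 13 filled points lie below 0 and 2 above, 1 of them PSMB11, which was tested only through its captured values; on the right none is filled and most points lie above 0.

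Among the ATPases, which unfold substrates, PSMC4 and PSMC3 were lower and the other 4 did not pass. PSMC4 was at 77.1 and 76.5 FPKM in WT RiboMinus, 6.36, 14.8 and 16.3 in captured WT RNA and 14.4, 26.5 and 30.7 in captured DXO-KO-labelled RNA. Both RiboMinus values lie above every captured one, with a mean 6.15-fold that of WT NAD-Capture, and the difference was -2.62 ± 0.42 (SE; adjusted p = 0.0119), the lowest of the called members. On the capture side it rests on 1, 3 and 6 fragments. PSMC3 was at 126 and 125 FPKM in WT RiboMinus, 29.7, 47.5 and 17.2 in captured WT RNA and 55.9, 56.8 and 90.3 in captured DXO-KO-labelled RNA, a WT difference of -2.07 ± 0.43 (SE; adjusted p = 0.0238). Its captured WT values spread from 17.2 to 47.5 without reaching the RiboMinus pair. PSMC2 and PSMC5 differed by -0.90 and -1.17 with adjusted p of 0.0811 and 0.178. PSMC6 stood on the other side, at 12.1 and 12.1 in WT RiboMinus and 36.8, 12.8 and 28.5 in WT NAD-Capture, a difference of 0.93 ± 0.46 (SE; adjusted p = 0.216). PSMC1, at 5.1 and 3.76 and 0, 4.3 and 0, was listed at 0 in 2 captured libraries and carried no call (difference -1.63 ± 0.89 (SE; adjusted p = 0.251)).

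In the rest of the base, PSMD1 and PSMD2, the large scaffold subunits, were lower, and the ubiquitin receptor PSMD4 did not pass. PSMD1 was at 93.8 and 89.8 FPKM in WT RiboMinus, 32.7, 23.4 and 21.4 in captured WT RNA and 44.6, 63 and 47.7 in captured DXO-KO-labelled RNA, with a WT difference of -1.81 ± 0.24 (SE; adjusted p = 0.00735). The highest captured WT value was well under the lower RiboMinus value. PSMD2 was at 68.2 and 69 FPKM in WT RiboMinus, 21.9, 29.8 and 31.1 in captured WT RNA and 43.4, 33.1 and 18.5 in captured DXO-KO-labelled RNA, a difference of -1.30 ± 0.22 (SE; adjusted p = 0.0149). PSMD4 differed by -0.67 ± 0.24 (SE; adjusted p = 0.108).

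All 8 lid genes had negative differences, from -2.02 to -0.04, and 3 passed. Beside this, 45% of all genes were lower by sign and 7.94% were called lower. With a mean of at least 10 FPKM, 4219 of 6856 genes were lower by sign and 18% were called lower. PSMD3, a PCI-domain scaffold of the lid, was at 81.3 and 77.8 FPKM in WT RiboMinus, 10.4, 18.2 and 34.3 in captured WT RNA and 19.4, 18.2 and 50.1 in captured DXO-KO-labelled RNA, and the difference was -2.02 ± 0.49 (SE; adjusted p = 0.0364). The captured WT values ranged from 10.4 to 34.3, below both RiboMinus values. PSMD6, another PCI-domain subunit, was steadier at 132 and 137 FPKM in WT RiboMinus, 49.4, 51.7 and 40.2 in captured WT RNA and 60.2, 144 and 121 in captured DXO-KO-labelled RNA, a difference of -1.50 ± 0.19 (SE; adjusted p = 0.00659). PSMD12 was at 72.1 and 72.8 FPKM in WT RiboMinus, 38.7, 38.9 and 44 in captured WT RNA and 55.5, 97.8 and 48.6 in captured DXO-KO-labelled RNA, a smaller difference of -0.82 ± 0.17 (SE; adjusted p = 0.0251). PSMD7 and PSMD8, structural lid subunits, came close with adjusted p of 0.0534 and 0.0510. PSMD14, the deubiquitinase of the lid, was near level at 85.9 and 85.9 and 105, 74.9 and 73.4 (difference -0.04 ± 0.22 (SE; adjusted p = 0.894)).

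In the alpha ring, which gates the core, 3 of 7 tested genes were called lower and none higher. The same threshold called 7.94% of all genes lower, and 18% of those with a mean of at least 10 FPKM. PSMA1 was at 158 and 151 FPKM in WT RiboMinus, 33.7, 72.6 and 22.3 in captured WT RNA and 85.8, 100.2 and 47.4 in captured DXO-KO-labelled RNA, a WT difference of -1.99 ± 0.50 (SE; adjusted p = 0.04), and PSMA3 at 143 and 139.9 FPKM in WT RiboMinus, 62.5, 40.3 and 28.9 in captured WT RNA and 34.1, 86.7 and 87.7 in captured DXO-KO-labelled RNA, a difference of -1.73 ± 0.34 (SE; adjusted p = 0.0213). In both genes all 3 captured WT libraries were below the RiboMinus pair. PSMA2 was at 107 and 104 and 60.6, 51.7 and 43.7 in the WT groups and differed by -1.02 ± 0.20 (SE; adjusted p = 0.0225). PSMA4, PSMA5 and PSMA6 were level within their error, with differences of 0.14, 0.11 and -0.07 and SEs of 0.22, 0.21 and 0.17. The ring thus held both the lowered PSMA1 and the level PSMA4, the second most abundant member.

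All 7 constitutive beta subunits had negative differences, from -1.50 to -0.31, and PSMB4 and PSMB5 passed. By sign 45% of all genes were lower, and 4219 of 6856 with a mean of at least 10 FPKM. Called lower were 7.94% and 18% of these. PSMB5, the chymotrypsin-like site and target of proteasome inhibitor drugs, was at 176 and 154 FPKM in WT RiboMinus, 55.7, 43.1 and 78.9 in captured WT RNA and 66.3, 77.4 and 68.5 in captured DXO-KO-labelled RNA, a WT difference of -1.50 ± 0.29 (SE; adjusted p = 0.02). PSMB4 was at 382 and 349.7 FPKM in WT RiboMinus, 165, 191 and 222 in captured WT RNA and 136, 303 and 363 in captured DXO-KO-labelled RNA, a difference of -0.93 ± 0.20 (SE; adjusted p = 0.0257). The other catalytic subunits did not pass: PSMB6 was at 179 and 169.5 and 98.4, 132 and 175 (difference -0.41 ± 0.28 (SE; adjusted p = 0.335)), and PSMB7 at 191 and 188 and 109, 147 and 75.3 (difference -0.82 ± 0.31 (SE; adjusted p = 0.115)). The WT groups overlapped for PSMB6 and not for PSMB7. PSMB3 differed by -1.36 ± 0.52 (SE; adjusted p = 0.124).

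Among the inducible and thymic beta subunits, PSMB10 was higher, while PSMB8 and PSMB11 entered the fit only through their captured values. PSMB10, the inducible trypsin-like subunit, was at 12 and 14 FPKM in WT RiboMinus, 24.8, 21.6 and 23.9 in captured WT RNA and 10.3, 0 and 15.5 in captured DXO-KO-labelled RNA. All 3 captured WT values exceeded both RiboMinus values, by 1.8-fold in the mean, and the difference was 0.80 ± 0.21 (SE; adjusted p = 0.0445), on 4 to 6 fragments. Centring each library ended this call (difference 0.35, adjusted p = 0.26), as did quantile normalization (adjusted p = 0.0591); over the 14 alternatives its adjusted p ran from 0.03 to 0.606. PSMB11, the thymic subunit, was listed at 0 in both WT RiboMinus libraries and in all 3 DXO-KO-labelled libraries, and at 12.2, 7.09 and 14.1 FPKM in WT NAD-Capture, or about 4, 2 and 7 fragments. No fold can be given against a group at 0. The fitted difference of 3.55 moves with the value added before the log, from 1.06 with 10 added to 6.75 with 0.1 added. It is given as a description, with no test, since the gene entered the fit only through the group where it was high. PSMB8 was at 0.1 and 0 FPKM in WT RiboMinus, 5.5, 4.31 and 0 in captured WT RNA and 0, 0 and 9.01 in captured DXO-KO-labelled RNA, and PSMB9 at 0.108 and 0 FPKM in WT RiboMinus, 0, 0 and 0 in captured WT RNA and 0, 8.2 and 0 in captured DXO-KO-labelled RNA. Each nonzero value of these interferon-inducible genes is about 1 fragment, so their levels were not measurable at this depth.

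**Figure D4:**
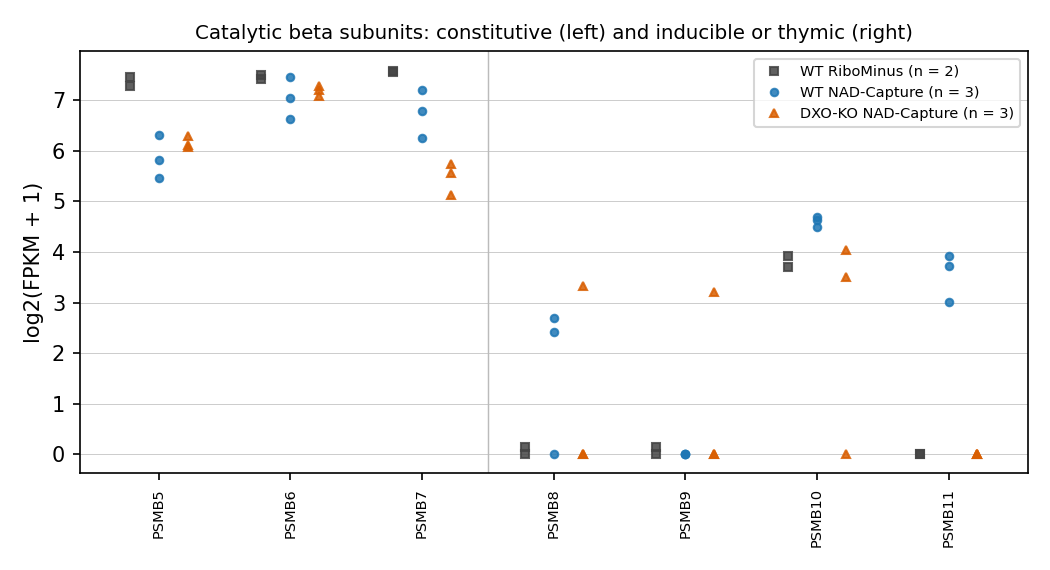
Level of the catalytic beta subunits in each library as log2(FPKM + 1), constitutive PSMB5, PSMB6 and PSMB7 on the left and inducible or thymic PSMB8, PSMB9, PSMB10 and PSMB11 on the right. Constitutive subunits stay above 5 in all 8 libraries, and PSMB10 lies below its WT NAD-Capture values in all 3 DXO-KO-labelled libraries, 1 of which is at 0.

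Among the remaining members, PSMF1, an inhibitor of the core, was lower at 32.3 and 31.3 FPKM in WT RiboMinus, 13.5, 10.5 and 9.32 in captured WT RNA and 10.8, 23 and 10.7 in captured DXO-KO-labelled RNA, a WT difference of -1.45 ± 0.24 (SE; adjusted p = 0.0132). No activator and no assembly chaperone passed. PSME4, the activator PA200, was at 28.4 and 33.2 and 3.82, 12.5 and 13.1 in the WT groups (difference -1.71 ± 0.53 (SE; adjusted p = 0.0725)). PSMG2, a core assembly chaperone, showed the lowest fitted value of any member, -2.76 ± 0.89 (SE; adjusted p = 0.0807), at 21.4 and 22.5 and 6.39, 0 and 4.21, with 1, 0 and 2 captured fragments. PSMG4 was at 17.6 and 13.9 and 35.4, 20.4 and 80.7 (difference 1.26 ± 0.58 (SE; adjusted p = 0.182)). PSMD10, the oncoprotein gankyrin that helps assemble the base, was at 71.2 and 68.7 and 90.8, 143 and 85.9 (difference 0.56 ± 0.27 (SE; adjusted p = 0.204)).

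By the base at the annotated start, the median WT difference was -0.90 over 19 tested members that start with A and -1.02 over 17 that start with G, beside 0.17 and -0.09 over all genes tested with A and G. It was -0.93 over the 2 members that start with C, and the 1 that starts with T was at -2.76. These medians were not tested against each other. The 11 tested members with the response element core had a median of -1.36 and the 28 without it -0.89, beside 0.00 and 0.08 over all genes. Across 45 members, the WT difference had a Spearman rho of -0.28 with transcript length, beside -0.18 across 16296 genes; the members share all libraries, and this is given as a description.

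The transcript that carried most of a gene's FPKM often differed between the WT RiboMinus and NAD-Capture libraries. Of 26 members with several transcripts and a value in all 6 NAD-Capture libraries, the leading RiboMinus transcript led in all 6 for 7, in some for 16 and in none for 3. In PSMC2, NM_002803 held 89.8% of the WT RiboMinus level, at 58.1 and 51.2 FPKM, and was at 8.68, 2.71 and 0 in WT NAD-Capture. Its other transcript, NM_001204453, was at 6.05 and 6.39 in WT RiboMinus, 35.6, 28.1 and 24.4 in captured WT RNA, and 33.1, 36.2 and 51.8 in captured DXO-KO-labelled RNA. All 6 captured libraries thus had the same order, opposite to RiboMinus. In PSME1, an interferon-responsive activator, NM_006263 held 91.8% of the RiboMinus level and was at most 0.00207 in each captured library. The split between transcripts of a gene is an estimate from shared fragments, here from a few fragments a library.

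The wider pathway was described by 39 listed partner genes, of which 38 were found in the table. After NAD-Capture in WT cells 6 were lower and 2 higher, with a median of -0.71. The share called, 21.1%, was near the 24.5% of all genes, and 15.8% were lower beside 7.94% of all genes and 18% of those with a mean of at least 10 FPKM, so nothing particular to the pathway is read from these counts. The lower partners included the segregase VCP at -1.94, the ubiquitin-activating enzyme UBA1 at -1.73, the ligase UBE3C at -1.60 and the shuttle factor RAD23B at -1.25. VCP stood at 179.8 and 164 FPKM in WT RiboMinus and 45.8, 35 and 53.3 in WT NAD-Capture, and UBA1 at 204 and 199.8 and 75.5, 50.8 and 57.3. Both genes thus fell in all 3 captured WT libraries. The higher partners belong to peptide loading: TAPBP, at 3.23 and 4.2 and 38.1, 29.6 and 22.2, differed by 2.69 ± 0.31 (SE; adjusted p = 0.00508), and B2M, at 131 and 118 and 965, 1575 and 704, by 3.03 ± 0.37 (SE; adjusted p = 0.00574). TAP1, the peptide transporter subunit, was not higher, at -0.53. The regulator NFE2L1 was at 36 and 35.1 and 30.3, 31.4 and 25.3, a difference of -0.29 ± 0.20 (SE; adjusted p = 0.335).

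The comparison of DXO-KO-labelled with WT NAD-Capture libraries asks which captured RNAs differ when DXO is targeted. No RiboMinus library came from DXO-KO-labelled cells. A change in capture therefore cannot be told apart from a change in total mRNA or a difference between clones. The WT NAD-Capture libraries are shared with the first comparison. No proteasome gene passed in limma: 0 of 46 tested, beside 0.0341% of 17592 genes (6 genes). At an unadjusted p under 0.05 there were 7 members, 5 higher and 2 lower (PSMB7 and PSMB11), beside 7.06% and 9.57% of all genes. By sign 35 members were higher and 11 lower, while 49.6% of all genes were higher. The median was 0.32 over the members and -0.01 over all genes. Among genes with a mean of at least 10 FPKM the 2 medians were close, 0.31 and 0.27. By sign 78.0% of the members and 63.4% of the genes above that level were higher. After quantile normalization 23 members were higher and 23 lower, with a median of 0.026, beside 51.9% of all genes higher. Groups did not overlap for 7 members that were higher (11.8% of all genes) and 3 that were lower (11.5%). PSMB11 is among the lower members both here and at the unadjusted p, though it entered the fit only through its WT NAD-Capture values. The median SE of a member's difference was 0.41 here and 0.29 in the first comparison. This is the error of a single gene's difference and does not measure the error of the median over the members.

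Higher values in the DXO-KO-labelled libraries came from several roles. All 6 ATPases had positive differences, with a median of 0.81, from 0.19 (PSMC6) to 1.16 (PSMC3). Beside this, 49.6% of all genes were higher by sign, and 63.4% of those with a mean of at least 10 FPKM. For PSMC3 the captured values were 29.7, 47.5 and 17.2 in WT and 55.9, 56.8 and 90.3 in the DXO-KO-labelled libraries (log2 difference 1.16 ± 0.41 (SE), unadjusted p = 0.0222, adjusted p = 0.233). The groups did not overlap. PSMA7, an alpha ring subunit, was at 116 and 131 FPKM in WT RiboMinus, 84.3, 90.8 and 69.6 in captured WT RNA and 149, 209 and 135 in captured DXO-KO-labelled RNA (log2 difference 0.98 ± 0.29 (SE), unadjusted p = 0.00869, adjusted p = 0.177). Its DXO-KO-labelled values exceeded those of both WT groups, of which WT RiboMinus was made with another kit. PSMA6 was at 51.3, 46.7 and 49.4 and 81.9, 62.1 and 107 in the captured groups (log2 difference 0.72 ± 0.30 (SE), unadjusted p = 0.0389, adjusted p = 0.282). PSMD6 (49.4, 51.7 and 40.2 against 60.2, 144 and 121) differed by 1.10 ± 0.37 (SE; adjusted p = 0.211) and PSMD1 (32.7, 23.4 and 21.4 against 44.6, 63 and 47.7) by 0.98 ± 0.31 (SE; adjusted p = 0.196). In these 5 genes every DXO-KO-labelled library was above every WT NAD-Capture library.

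Negative differences were seen in 11 members, of which 5 were beta subunits (2 of the 7 constitutive and 3 of the 4 inducible or thymic) and the others PSMA2, PSMA4, PSMD13, PSME2, PSMG3 and PSMG4. The constitutive beta ring had 5 positive differences and a median of 0.18, beside 49.6% of all genes higher by sign. PSMB7, the constitutive trypsin-like site, was at 191 and 188 FPKM in WT RiboMinus, 109, 147 and 75.3 in captured WT RNA and 52.4, 33.7 and 46.1 in captured DXO-KO-labelled RNA (log2 difference -1.28 ± 0.34 (SE), unadjusted p = 0.005, adjusted p = 0.151). Its 3 groups did not overlap and lay in descending order from RiboMinus to the DXO-KO-labelled libraries, the last on 33, 4 and 3 fragments. The step from RiboMinus also crosses the change of kit. PSMB10, its inducible counterpart, was at 24.8, 21.6 and 23.9 and 10.3, 0 and 15.5 in the captured groups, a difference of -2.09 ± 0.95 (SE; adjusted p = 0.311). Without DXO-KO replicate 2, where it was at 0, the difference was -0.84. PSMB11 was at 12.2, 7.09 and 14.1 against 0 in all 3. It entered this fit too only through the group where it was high, as PSMB9 did, so its values are given with no test. One fragment was worth less in DXO-KO replicate 1, at 1.24 FPKM per kilobase of transcript, than in the WT NAD-Capture libraries (4.02 to 6.05), and more in replicates 2 and 3 (7.26 and 12.4). The other catalytic subunits differed by 0.29 ± 0.31 (SE; adjusted p = 0.618) for PSMB5 and 0.14 ± 0.30 (SE; adjusted p = 0.829) for PSMB6, both positive here and negative after quantile normalization (-0.04 and -0.20).

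Assembly factors were uneven. PSMD10 was at 90.8, 143 and 85.9 and 129, 156 and 327 in the captured groups (difference 0.85 ± 0.41 (SE; adjusted p = 0.331)), its highest value in the shallowest library. PSMG4 was at 35.4, 20.4 and 80.7 and 9.34, 24.1 and 20.2 (difference -1.18 ± 0.55 (SE; adjusted p = 0.326)), and PSMG3 at 110.0, 66.9 and 71.4 and 31.6, 23.3 and 128 (difference -0.81 ± 0.59 (SE; adjusted p = 0.502)). The captured groups overlapped for both PSMG4 and PSMG3, and neither passed. None of the 38 partner genes passed, beside 0.0341% of all genes. By sign 28 were higher and 10 lower, with a median of 0.47, beside 49.6% of all genes higher. Among genes with a mean of at least 10 FPKM, 63.4% were higher, with a median of 0.27. Nothing particular to the pathway is read from these counts. UBA1 was at 75.5, 50.8 and 57.3 and 109.6, 127 and 108 (log2 difference 0.91 ± 0.28 (SE), unadjusted p = 0.0101, adjusted p = 0.182), and VCP at 45.8, 35 and 53.3 and 66.1, 50.0 and 40.7 (difference 0.21 ± 0.32 (SE; adjusted p = 0.741)).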

How the data were processed

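The authors deposited FPKM per RefSeq transcript and library. Per the submitters' processing notes, TopHat2 2.1.1, Bowtie2 2.2.8.0, Cuffdiff and build hg19 were used; further settings are not given in the sources used here. A RefSeq table (GRCh38.p14) gave symbols for 97.8% of transcripts, and FPKM was summed per symbol, numbered copies of an accession included. Depth was estimated from 7073 single-transcript genes of 1500 to 6000 nt, with lengths from GENCODE less 200 nt; 71.8% to 74.1% of low values lay within 4% of whole multiples. Because transcripts that share a gene do not give whole fragments, no count model was fitted. Differences were tested with limma 3.58.1 (R 4.3.3; eBayes with trend) on log2(FPKM + 1) over genes with a mean of at least 1 FPKM, using only the libraries of the groups compared; scripts were tested on simulated data. Exact permutation tests used scipy 1.17.1 (Python 3.11.15). Genes were named if they passed an adjusted p of 0.05, then by size of difference to 20 per comparison, plus PSMB5 to PSMB11, PSMA8 and DXO; genes named outside that rule complete a role group and were chosen after their values were seen. Members, roles and partner lists were chosen with earlier results of these data known. Some partner genes that passed are not reported here by name.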

Additional observations from a re-analysis of the deposited data

How the results depend on the processing

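The WT comparison rested on both WT RiboMinus libraries. Leaving out 1 library at a time gave 0 to 19 members, 0 to 13 partner genes and 18 to 5266 genes past the threshold, and member medians of -0.88 to -0.83. With either WT RiboMinus replicate left out, 0 of the 15 members stayed called, and the lone library is then assumed to vary like the others. Without WT NAD-Capture replicates 1, 2 and 3, 12, 13 and 14 of the 15 stayed called: PSMA1 (-1.91, adjusted p = 0.109), PSMB5 (-1.48, 0.056) and PSMC3 (-2.09, 0.0674) were lost without replicate 1, PSMA3 (-1.71, 0.0553) and PSMD3 (-2.0, 0.0858) without replicate 2, and PSMA1 (-1.62, 0.0675) without replicate 3. With the replicate number as a block, 0 members, 0 partner genes and 0 genes passed, although 23 members and 5663 genes had an unadjusted p under 0.05. Deviations of libraries with the same number correlated at -0.026 to 0.023 here and -0.033 to -0.0058 in the DXO-KO comparison. In the latter no library correlated best with its own number, and the block changed no member's call. With 2 RiboMinus libraries the deviations mirror each other, and captured values rest on few fragments, so pairing is neither shown nor excluded. WT NAD-Capture replicate 3 has no RiboMinus partner. Tested as single transcripts, 25 proteasome transcripts (8 higher, 17 lower), 19 of partner genes and 6221 in all passed. By their most abundant transcript 7 of the 15 called members stayed called (lost were PSMA1, PSMA3, PSMB5, PSMC4, PSMD1, PSMD3, PSMD6 and PSMD12, all still negative). Without the filter 13 stayed called (lost were PSMA1 and PSMD3). Centring gave 27 members (PSMB11, tested only through its captured values, among them), 21 partner genes and a median of -1.33. A mean of at least 10 FPKM gave 2341 genes. Quantile normalization gave 2375 genes and a member median of -0.78, with 10 of the 15 members still called (lost were PSMA1, PSMB10, PSMD2, PSMD3 and PSMD12). The fit of all 8 libraries gave 2602 genes and kept 12 of the 15 (lost were PSMB4, PSMB10 and PSMD12). Adding 10 gave a member median of -0.71.

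In the DXO-KO comparison, genes past the threshold numbered 11 with 10 added, 13 with centring, 28 with quantile normalization, 439 with all 8 libraries, and 4 to 15 with 1 library left out. The member median was 0.23, 0.44 and 0.026 under the first 3, and 0.20 to 0.43 with 1 library left out. With all 8 libraries, 1 member (PSMB11, tested only through its WT NAD-Capture values) and 1 partner gene passed. Signs turned for PSMA3 (-1.63) and PSMB8 (0.31) as single transcripts, PSMB5 (-0.041) and PSMB6 (-0.20) after quantile normalization, PSMB6 without WT NAD-Capture replicate 1 (-0.067; -0.067 to 0.34 with each library left out in turn), and PSMC1 without DXO-KO replicate 2 (-0.068; -0.068 to 1.68). The cause was not tested. Depth limits both comparisons: 9 to 38 members had at least 10 fragments in a NAD-Capture library.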
